A study of Homo sapiens with 12 samples.

Results

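The 42 genes described here encode the machinery that copies DNA, together with the repair and checkpoint proteins that act while it is copied. They were taken as a list of names and matched by Ensembl gene identifier to symbols, and each of the 42 was found once among the 61541 gene identifiers of the deposited tables. By role they comprise the MCM2-7 helicase, licensing and firing factors, polymerases and primase, the sliding clamp with its loader and the enzymes of the lagging strand, nucleotide supply, G1/S regulators, maintenance methylation, and S-phase repair and checkpoint. The cells were IMR90 fibroblasts from human fetal lung, labelled wild type. All 12 libraries came from polyadenylated RNA of cells exposed to doxorubicin, a topoisomerase poison that breaks DNA, for 24 h and then kept in culture for at least 8 days. The 4 groups of 3 libraries each were plastic with 100 nM, a 2 kPa gel with 100 nM, plastic with 250 nM and a 2 kPa gel with 250 nM, and the study asks how the stiffness of the substrate bears on the state that the drug leaves. Untreated cells were not analysed here, so no level can be set against undamaged cells, and a single line stands for the tissue. The labels do not say whether the 3 libraries of a group came from separate cultures, so the p-values measure the spread between these libraries, which may be technical.

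A replication origin is licensed in G1, when CDC6 and CDT1 load the ring of MCM2 to MCM7 onto DNA, and it fires in S phase, when CDC45 and the GINS complex join that ring to make the active helicase. DNA polymerase alpha with its primase starts each strand, the clamp PCNA holds the polymerases on the template after the RFC complex has loaded it, and ribonucleotide reductase and thymidylate synthase keep the pool of deoxynucleotides filled. Most of these genes are transcribed at the G1/S boundary by E2F factors, which the retinoblastoma family holds back in cells that have left the cycle, and loss of their transcripts is a known mark of senescent fibroblasts.

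Library totals ran from 5887056 to 7351916 expected counts at 100 nM and from 2229069 to 2730309 at 250 nM. The names of the 250 nM data carry a mark for molecular identifiers that those of the 100 nM data lack, so dose, depth and set of libraries cannot be told apart. Levels are given as CPM, counts scaled to a common library size with edgeR's TMM factors, in the order of replicates 1, 2 and 3. A count of 3, taken here as the limit that a count of 0 allows, corresponds to 0.400 to 0.544 CPM at 100 nM and to 0.991 to 1.46 CPM at 250 nM, for counting error only. Plastic 100 nM replicate 1 and gel 250 nM replicate 1 stood apart, with 14.3% and 13.2% of counts at ribosomal DNA loci, where the other 10 libraries had 24.2% to 30.7%. All 10 fibroblast markers passed the expression filter, with a summed level of 9819 to 14828 CPM, whereas 0 of 12 leukocyte, 1 of 10 endothelial and 4 of 12 epithelial markers did. The leukocyte markers summed to at most 3.31 CPM in any library, and 5 of them were at 0 in all libraries. Endothelial markers summed to 7.29 to 44.7 CPM and epithelial markers to 46.1 to 223 CPM. Of the fibroblast markers, 2 were called lower on gel at 100 nM, 1 at 250 nM and 3 over both doses. Of the 12329 genes tested, 19, 1 and 59 were called lower in these comparisons. Of 8 pericyte and smooth muscle markers 6 passed the filter, and their summed level ran from 291 to 469 CPM on plastic and from 161 to 288 CPM on gel at 100 nM, and from 538 to 742 CPM on plastic and from 339 to 462 CPM on gel at 250 nM. Among them ACTA2 was called lower on gel over both doses, and ACTA2 and CSPG4 were called higher at 250 nM on gel. The part of these markers in the members' results was not tested.

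Because members that move together often share promoter elements, the RefSeq promoter windows of GRCh38.p14 were read, each with 250 bases before and 50 bases after a transcription start. Of the 42 genes, 38 had a window in the table, and MCM4, MCM5, CCNE2 and FANCI had none. The E2F words TTTCCCGC, TTTGGCGC, TTTCGCGC and TTTGCCGC were searched on both strands. At least 1 word stood in the windows of 22 of the 38 genes (57.9%), against 3.99% of the 27305 genes in the table. The CCAAT box (CCAAT), searched on both strands, was present for 20 of 38 (52.6%), against 39.7% of genes, and the word TTTGAA for 1 of 38 (2.63%), against 18.2%. A match describes letters in a window and is not a measured binding site. The window of BRCA2, called between doses below, held none of the words searched, and that of PRIM1, also called, held the CCAAT box and no E2F word. The stretches printed here are those of some members named in the later results, with at most 20 bases past the start. They include that of E2F1, which did not pass the expression filter, and leave out PRIM1. In those directly below, capitals mark the E2F words only. The windows of MCM6, GINS1, PCNA and E2F1 held the CCAAT box as well, and in the stretches of GINS1 and PCNA it stands in small letters. For MCM2 the stretch lies at chr3:127598361-127598430 on the plus strand, for MCM6 at chr2:135876556-135876625 on the minus strand, for GINS1 at chr20:25407623-25407692 on the plus strand, for PCNA at chr20:5126642-5126711 on the minus strand, for FANCD2 at chr3:10026387-10026456 on the plus strand and for E2F1 at chr20:33686379-33686448 on the minus strand. In MCM2 and MCM6 the capitals cover 2 overlapping words on opposite strands, and in E2F1 they mark 2 separate words.
MCM2: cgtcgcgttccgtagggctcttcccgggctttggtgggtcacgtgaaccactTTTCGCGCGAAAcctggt
MCM6: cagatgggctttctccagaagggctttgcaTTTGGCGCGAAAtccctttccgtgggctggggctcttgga
GINS1: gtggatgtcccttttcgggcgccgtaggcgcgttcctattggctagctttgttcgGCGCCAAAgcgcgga
PCNA: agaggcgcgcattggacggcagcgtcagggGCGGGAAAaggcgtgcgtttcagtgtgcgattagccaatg
FANCD2: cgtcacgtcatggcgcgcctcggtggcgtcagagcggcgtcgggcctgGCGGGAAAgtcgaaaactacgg
E2F1: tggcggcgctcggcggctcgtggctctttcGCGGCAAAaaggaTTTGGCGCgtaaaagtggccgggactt

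No E2F word was found in the windows of RAD51AP1 and RRM2, which held the CCAAT box, at chr12:4538790-4538859 on the plus strand and at chr2:10122586-10122655 on the plus strand. The RRM2 stretch holds it at 2 places.
RAD51AP1: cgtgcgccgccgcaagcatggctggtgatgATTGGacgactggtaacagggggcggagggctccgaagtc
RRM2: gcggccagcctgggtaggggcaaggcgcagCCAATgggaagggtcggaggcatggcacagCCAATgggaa

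The members spanned a wide range of levels. Per transcript length, the highest mean TPM over the 12 libraries was 87.6 for DNMT1, followed by 48.4 for PCNA, 46.1 for RRM1, 21.1 for MCM4, 16.4 for FEN1 and 12 for TYMS, and the lowest was 0.01 for E2F2. This order leans on the isoform lengths that RSEM estimated: for DNMT1 they ran from 576 to 720 bases, against 5408 for its longest coding transcript, and for 25 of the 42 members they differed more than 1.5 times between libraries. By counts alone the order began with RRM1, PCNA and DNMT1. Of the 42 members, 39 passed the filter and entered the tests. POLD1, the catalytic subunit of polymerase delta, had at most 12 counts in a library and 0 in 3 libraries. E2F1, an activating E2F factor, had 1 to 29. E2F2 had 3 counts in plastic 100 nM replicate 1 and 1 in replicate 3, and 0 counts in the other 10 libraries.

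**Figure D1:**
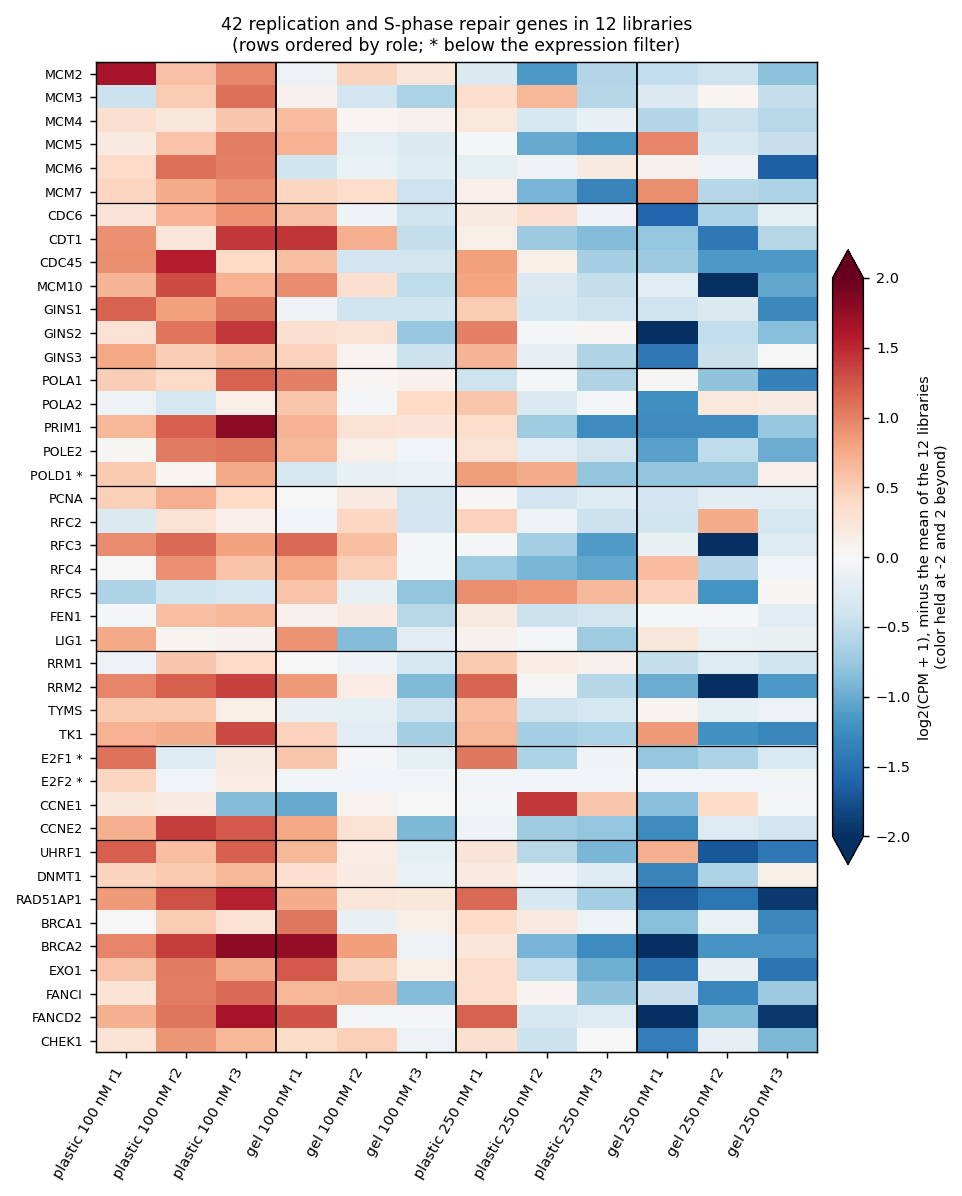
Level of each of the 42 members (rows, ordered by role, horizontal lines between roles) in each of the 12 libraries (columns, vertical lines between groups), as log2(CPM + 1) minus the member's mean over the 12 libraries. The plastic 100 nM columns are mostly red and the gel 250 nM columns mostly blue, replicate 1 is the reddest column of gel 100 nM and of plastic 250 nM, and the asterisk marks the 3 members below the filter.

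Within each group but gel 250 nM, the tested members tended to be high or low in the same library. In gel 250 nM, replicates 1, 2 and 3 were highest for 15, 19 and 5 members, against 40.3%, 31.8% and 27.9% of all genes. They were lowest for 17, 10 and 12, against 46.5%, 28.1% and 25.4%, with ties given to the first library. In plastic 250 nM, replicate 1 had the highest value for 34 of the 39 tested members, where it was highest for 38.5% of all genes tested. Replicate 3 of that group had the lowest for 27, against 29.9% of all genes. In gel 100 nM, replicate 1 was highest for 31 members, against 40.1% of all genes. Replicate 3 of that group was lowest for 28 and highest for 0, against 28.5% and 28.2% of all genes. In plastic 100 nM, replicate 1, which had a low share of ribosomal DNA counts, was lowest for 25 members, against 37.0% of all genes. The summed level of the 42 members was 639.9, 777 and 811 CPM on plastic and 644, 509.7 and 379.7 CPM on gel at 100 nM. At 250 nM it was 632, 437 and 387 CPM on plastic and 355, 331 and 330.4 CPM on gel. Gel 100 nM replicate 1 thus lay above the lowest plastic library, and the groups overlapped at 100 nM, while at 250 nM the 3 gel libraries lay below the 3 plastic libraries. The summed level of 10 mitosis markers, such as TOP2A and MKI67, followed the same order within 3 of the 4 groups, with 447, 626 and 708 CPM on plastic and 461, 279 and 181 CPM on gel at 100 nM. At 250 nM the markers summed to 325, 124 and 96.2 CPM on plastic and 157, 46.6 and 55.6 CPM on gel. Fewer cycling cells and less RNA of these genes per cell cannot be told apart in bulk RNA, and the part of cycling cells in the results was not tested.

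**Figure D2:**
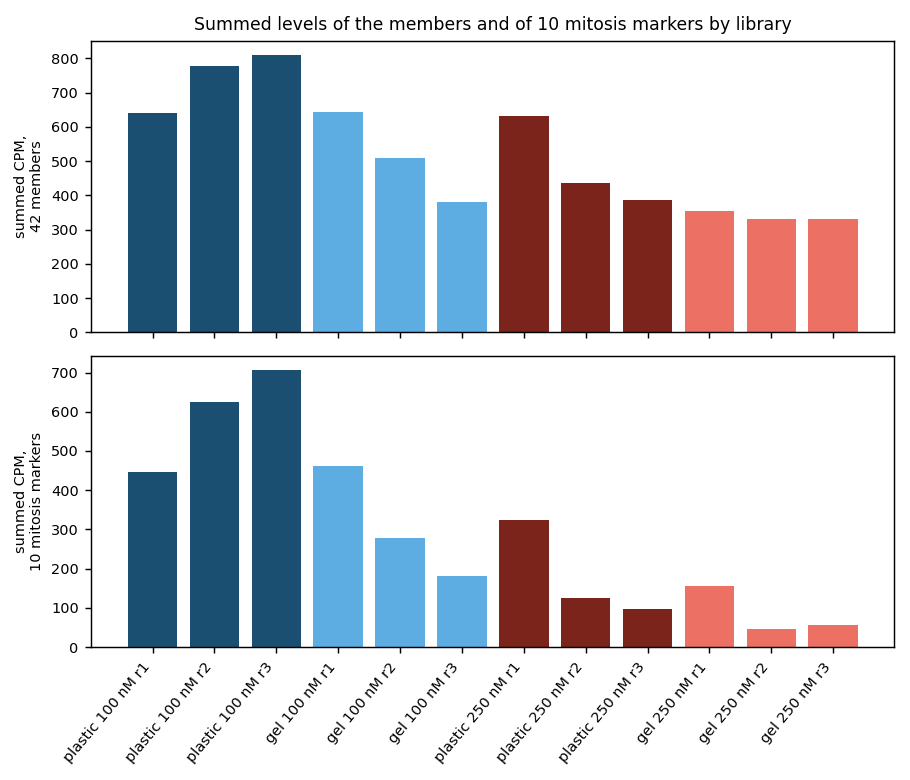
Summed CPM of the 42 members (upper panel) and of 10 mitosis markers (lower panel) in each of the 12 libraries, 1 bar per library, with bars colored by group. Members ran from 330.4 to 811 CPM, and in both panels replicate 1 is the highest bar of gel 100 nM and of plastic 250 nM.

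The first comparison asked whether the genes of replication differ between a soft gel and plastic at the same dose. At 100 nM, 36 of the 39 tested members had a negative log2 change on gel, with a median of -0.59, against a median of -0.011 and a negative change for 51.1% over the 12329 genes tested. No member passed an adjusted p of 0.05 in edgeR's quasi-likelihood test, where 0.227% of all genes passed, 6 members had an unadjusted p under 0.05 and a lower level on gel (5.93% of all genes), and DESeq2 called 1, GINS1, where it called 1.36% of all genes. Limma-voom with sample weights called 8 members, and 3.63% of all genes. The members with a positive change were POLA2 (0.52), RFC5 (0.48) and BRCA1 (0.17). For 11 members all 3 gel libraries lay below all 3 plastic libraries, where this held for 9.38% of all genes. The 5 largest changes among them were those of GINS1 (-1.49), TK1 (-1.24), MCM6 (-1.20), MCM2 (-1.14) and RRM2 (-1.01). The expression filter, whose CPM uses library totals without the TMM factors, asked for 2.32 CPM in at least 3 of the 12 libraries. All 3 plastic libraries reached it for 36 of the 39 members, and all 3 gel libraries for 26 (84.3% and 83.4% of all genes). MCM2 and TK1 reached it on plastic and not on gel, and the choice of tested genes favors a fall on gel for such members. When the 100 nM libraries were filtered and fitted alone, 40 members were tested, 37 of them with a negative change.

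At 250 nM, 32 of 39 members had a negative change, with a median of -0.65, against -0.021 over all genes and 51.9% negative. Again 0 members were called by edgeR, where 0.00811% of all genes were, with 8 members lower (4.57% of all genes) and 1 higher at an unadjusted p under 0.05. DESeq2 called 1, RAD51AP1, and 0.836% of all genes, and limma-voom with sample weights called 0 members and 1.31% of all genes. For 11 members the gel libraries lay below the plastic libraries, where 7.62% of all genes did so. The largest such changes were those of CDC45 (-3.32), FANCD2 (-3.07), RAD51AP1 (-2.98), GINS2 (-2.09) and RRM2 (-1.81). The first 4 rest on few counts: summed over the 3 libraries, gel held 1 count of CDC45, 5 of FANCD2, 5 of RAD51AP1 and 9 of GINS2, against 11, 43, 39 and 39 on plastic. RFC4, a small subunit of the clamp loader, was the member whose gel libraries lay above plastic (1.55), where 7.45% of all genes did so. Of the 39, 11 did not reach the minimum of the expression filter, 2.32 CPM in at least 3 libraries, within the 6 libraries at 250 nM, and entered this comparison with the help of the 100 nM libraries in the same fit, as did 9.12% of all genes. RAD51AP1, CDC45 and RFC4 were among these 11. With the TMM factors RAD51AP1 lay above 2.32 CPM in all 3 plastic libraries, at 2.36 CPM in replicate 3. On the library totals that the filter uses, replicate 3 lay below the minimum. All 3 plastic libraries at 250 nM reached the minimum for 25 of the 39, and all 3 gel libraries for 17 (79.9% and 76.4% of all genes). FANCD2 and GINS2 reached it on plastic and not on gel, and the choice of tested genes favors a fall on gel for such members. When the 250 nM libraries were filtered and fitted alone, 20 members were tested, 16 of them with a negative change and a median of -0.46, and 0 were called.

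Averaged over both doses, 34 of 39 members had a negative change, with a median of -0.60, against -0.0048 and 50.7% negative over all genes. Of the 39, 1 member fell, RAD51AP1 (log2 change -1.95, SE 0.42, adjusted p = 0.049), where 0.479% of all genes were called lower, and 14 members had an unadjusted p under 0.05, each of them lower on gel (6.76% of all genes). RAD51AP1 was called in 8 of the 25 fits made. Its call was lost with the replicate block (adjusted p = 0.058), with RLE scaling (0.0505), in thinned libraries (0.0505) and with limma on log2(TPM + 1) (0.117) or log2(TPM + 0.1) (0.126). RAD51AP1 and RRM2 were the members whose gel libraries lay below plastic at both doses, where 1.94% of all genes did so. The call was also lost in 11 of the 12 fits that left out 1 library, in which its adjusted p ran from 0.037 to 0.134, and it held without plastic 250 nM replicate 3. It was also lost without the 2 libraries of low ribosomal DNA share (adjusted p = 0.055). The change of RRM2 (log2 change -1.41, SE 0.35, adjusted p = 0.083) passed in 1 of those 12 fits, without gel 100 nM replicate 1. The gel effect differed between the doses for 0 members by edgeR and for 0 by DESeq2, where each called 0.0% of all genes. At an unadjusted p under 0.05 it differed for 2 members, RAD51AP1 and RFC5, both more negative at 250 nM (2.13% of all genes) and both with an adjusted p of 0.750.

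**Figure D3:**
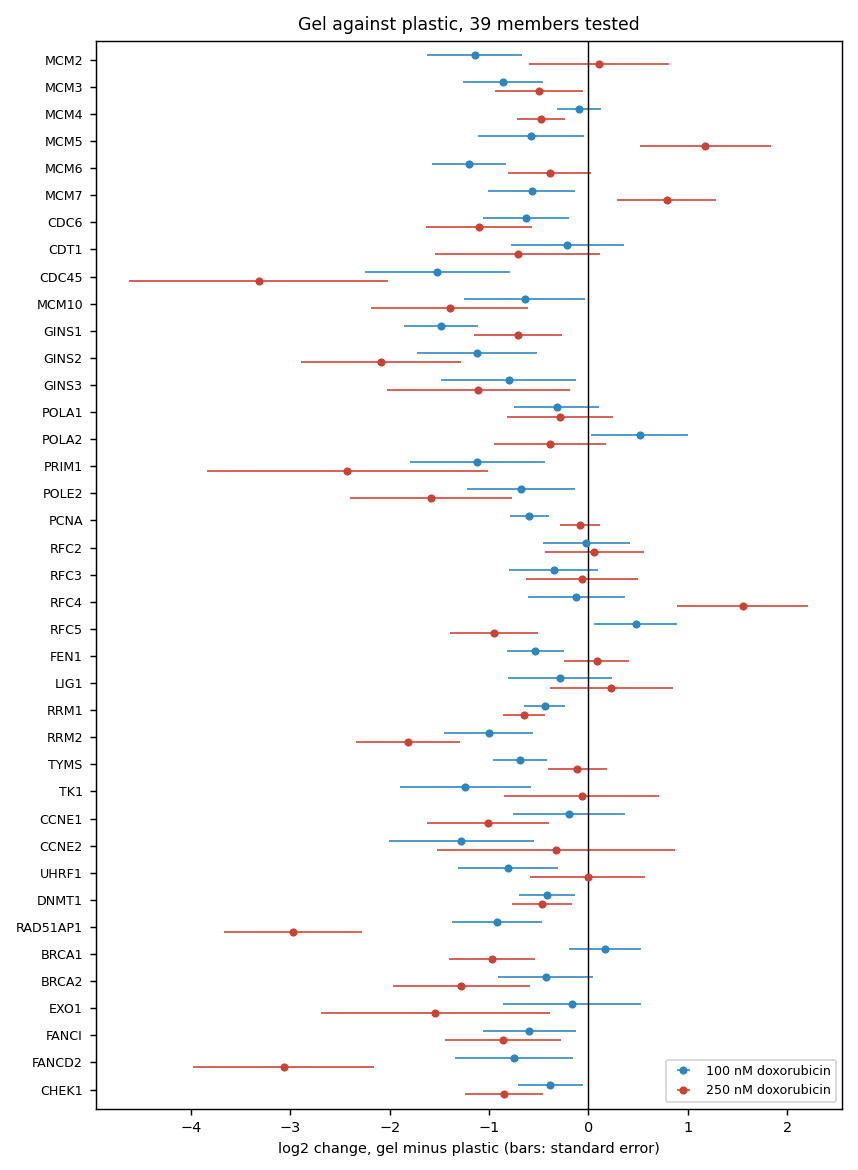
Log2 change on gel against plastic of each of the 39 tested members, at 100 nM (blue) and at 250 nM (red), with the standard error of the edgeR fit as bars. Most points lie left of 0, with medians of -0.59 and -0.65, and no member was called at either dose.

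The second comparison set 250 nM against 100 nM on each substrate. On plastic, 36 of 39 members had a negative change, with a median of -0.93, against -0.035 and 52.0% negative over all genes, and on gel 34 of 39 did, with a median of -1.02, against -0.019 and 51.0% negative. Of the 39, 3 members fell on plastic, MCM2, BRCA2 and PCNA, where 4.48% of all genes were called lower. Of the 39, 5 members fell on gel, RAD51AP1, BRCA2, FANCD2, MCM4 and PRIM1, where 6.9% of all genes were called lower. No member was called higher on either substrate, where 4.04% of all genes were on plastic and 6.91% on gel. At an unadjusted p under 0.05, 15 members were lower on plastic and 17 on gel, where 14.1% and 16.3% of all genes were. At that level 1 member, RFC5, was higher on plastic and 0 on gel, where 11.7% and 15.2% of all genes were. MCM2, RAD51AP1 and PRIM1 are among the 11 members that did not pass the expression filter on the 250 nM libraries alone, and the choice of tested genes favors a fall for them. All 3 gel libraries reached the filter's minimum for 26 of the 39 members at 100 nM and for 17 at 250 nM (83.4% and 76.4% of all genes). BRCA2 and FANCD2 reached it on gel at 100 nM and not at 250 nM, so the same choice favors a fall on gel for them too. On gel at 250 nM the 3 libraries together held 5 counts of RAD51AP1, 5 of FANCD2 and 1 of PRIM1. The counts and medians over the tested members are therefore descriptions. The libraries of the dose groups did not overlap, with 250 nM lower, for 18 members on plastic and for 14 on gel, where 19.3% of all genes did so on each substrate. When 1 library was left out, the count of called members moved, as did the share of all genes called in either direction. On plastic it ran from 0 to 11, against 3 members and 8.52% of all genes with every library. It was 11 without gel 250 nM replicate 1 (16.1% of all genes), 7 without plastic 250 nM replicate 1 (6.13%), 6 without gel 250 nM replicate 2 (6.81%), 1 without plastic 100 nM replicate 1 (5.4%) or 2 (4.12%), and 0 without plastic 250 nM replicate 2 (0.688%) or 3 (0.737%). The 11 and the 6 include RFC5, called higher. On gel it ran from 2 to 7, against 5 members and 13.8% of all genes with every library. It was 2 without gel 100 nM replicate 1 (5.84%), 3 without gel 250 nM replicate 3 (9.01%), and 7 without gel 100 nM replicate 3 (8.76%) or gel 250 nM replicate 2 (11.4%). Dose and library set cannot be told apart in either count.

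**Figure D4:**
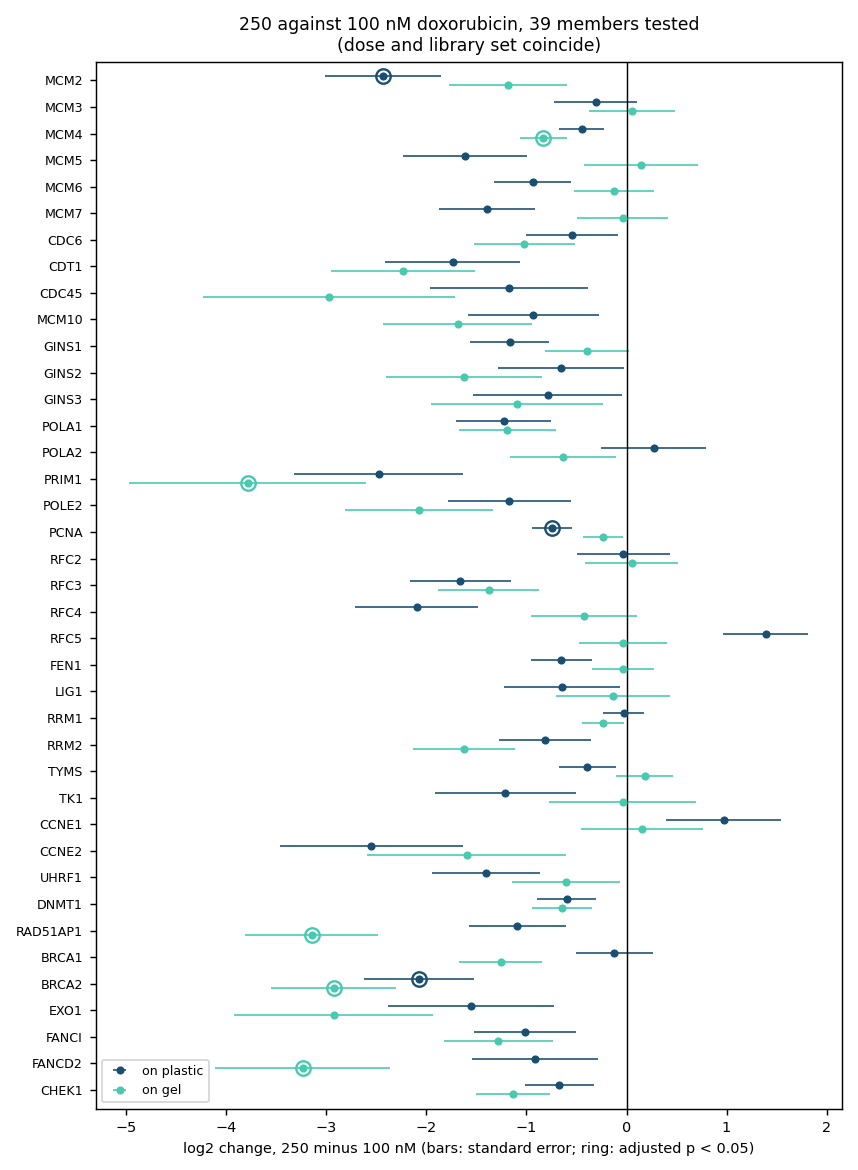
Log2 change at 250 nM against 100 nM of each of the 39 tested members, on plastic (dark blue) and on gel (green), with the standard error of the edgeR fit as bars and a ring around members with an adjusted p under 0.05. The rings mark 3 members on plastic and 5 on gel, all left of 0, and RFC5 on plastic is the point farthest to the right (1.39).

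The 6 subunits of the MCM2-7 ring form the core of the replicative helicase. All 6 had a negative change on gel at 100 nM and 3 of 6 at 250 nM, with medians of -0.72 and -0.14, and 0 passed the test at either dose. MCM4 was the most abundant, with 35.8, 33.3 and 41.8 CPM on plastic and 44.3, 29.3 and 30.4 CPM on gel at 100 nM, and 33.1, 22.5 and 25.5 CPM on plastic and 18.5, 20.9 and 19 CPM on gel at 250 nM. Its libraries overlapped between substrates at 100 nM, and on gel the 250 nM libraries lay below the 100 nM libraries, a fall that passed the test (log2 change -0.83, SE 0.23, adjusted p = 0.032) and was lost without gel 100 nM replicate 1 or gel 250 nM replicate 1 or 3. MCM6 read 13.2, 22.5 and 20.9 CPM on plastic and 7.26, 8.94 and 8.27 CPM on gel at 100 nM. Every plastic library was above every gel library at that dose (log2 change -1.20, SE 0.37, adjusted p = 0.279). At the higher dose MCM6 read 8.69, 9.39 and 11.4 CPM on plastic and 10.6, 9.23 and 2.53 CPM on gel, and the groups overlapped. MCM2 had 9.21, 3.87 and 5.38 CPM on plastic and 2.00, 3.44 and 2.85 CPM on gel at 100 nM, with replicate 1 of plastic the highest library. The higher dose gave 1.66, 0.469 and 1.18 CPM on plastic and 1.32, 1.46 and 0.843 CPM on gel, all below the 100 nM libraries of the same substrate. The fall of MCM2 on plastic passed the test (log2 change -2.44, SE 0.58, adjusted p = 0.023), and it was lost without plastic 100 nM replicate 1 or plastic 250 nM replicate 2 or 3. MCM7 counted 18.5, 23.2 and 26.3 CPM on plastic and 18.5, 17.5 and 9.84 CPM on gel at 100 nM, where the groups only just did not overlap. At 250 nM its values were 14.5, 6.57 and 4.71 CPM on plastic and 26.4, 8.74 and 8.43 CPM on gel. Gel 250 nM replicate 1, the library with a low ribosomal DNA share, was the outlying one, above all 3 plastic libraries while replicates 2 and 3 lay among them. MCM3 showed 9.21, 18.4 and 28.5 CPM on plastic and 13.6, 9.49 and 7.84 CPM on gel at 100 nM, and 16.6, 20.7 and 8.25 CPM on plastic and 10.2, 13.1 and 8.85 CPM on gel at 250 nM, with overlap between substrates at both doses. MCM5 ranged from 1.18 to 8.87 CPM, and its highest value at 250 nM was also in gel replicate 1.

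Licensing and firing factors decide where and when a fork starts. All 7 had a negative change on gel at each dose, with medians of -0.80 at 100 nM and -1.11 at 250 nM, and 0 were called. GINS1, a subunit of the GINS complex, measured 13.9, 10.5 and 12.7 CPM on plastic and 5.26, 3.99 and 3.99 CPM on gel at 100 nM. The plastic libraries were all above the highest gel library, and this change had the lowest adjusted p of any member at that dose (log2 change -1.49, SE 0.37, adjusted p = 0.156). At 250 nM GINS1 measured 8.28, 4.22 and 3.93 CPM on plastic and 3.97, 4.37 and 1.69 CPM on gel, and the groups overlapped. GINS2, another subunit, measured 4.94, 9.14 and 11.9 CPM on plastic and 5.08, 4.95 and 1.85 CPM on gel at 100 nM, with overlap, and 8.69, 3.76 and 3.93 CPM on plastic and 0, 2.43 and 1.69 CPM on gel at 250 nM, without. The change at 250 nM was -2.09 (SE 0.80, adjusted p = 0.385), and the 0 stood in the library of low ribosomal DNA share. CDC45, which completes the active helicase, was rare, at 3.20, 5.58 and 1.90 CPM on plastic and 2.36, 0.687 and 0.713 CPM on gel at 100 nM, and 2.90, 1.41 and 0.393 CPM on plastic and 0.330, 0 and 0 CPM on gel at 250 nM. At 250 nM its gel group held 1 count in all against 11 on plastic, a CPM ratio of 11.6 with an exact 95% interval of 1.68 to 498 for counting error only, and the fitted change did not pass the test (adjusted p = 0.395). CDC6, a loader of the MCM ring, read 6.14, 8.67 and 10.1 CPM on plastic and 7.98, 4.67 and 3.56 CPM on gel at 100 nM, and 5.79, 6.57 and 4.71 CPM on plastic and 0.991, 2.91 and 4.21 CPM on gel at 250 nM. It did not overlap at the higher dose, where gel replicate 1 was the lowest library (log2 change -1.10, SE 0.53, adjusted p = 0.515). The levels of CDT1, MCM10 and GINS3 ran from 0 to 10.5 CPM, and CDT1 did not overlap between doses on either substrate.

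Polymerases and primase make the new strands. Of the 4 tested, 3 had a negative change on gel at 100 nM and 4 at 250 nM, and 0 were called. PRIM1, the catalytic primase, had 2.80, 4.49 and 7.28 CPM on plastic and 2.90, 1.92 and 1.85 CPM on gel at 100 nM, and 2.07, 0.469 and 0 CPM on plastic and 0, 0 and 0.421 CPM on gel at 250 nM. The highest library was plastic 100 nM replicate 3, and 3 of the 6 libraries at 250 nM held 0 counts. On gel the 3 libraries at 250 nM held 1 count in all, against 43 at 100 nM, a CPM ratio of 16.2 with an exact 95% interval of 2.76 to 654 for counting error only. This fall was called by edgeR (adjusted p = 0.048), and the call was lost in 7 of the 10 fits without 1 library that tested it, those without any 1 of the 6 gel libraries among them. POLE2, the second subunit of polymerase epsilon, had 1.87, 4.80 and 4.91 CPM on plastic and 3.45, 2.06 and 1.71 CPM on gel at 100 nM, and 2.48, 1.41 and 1.18 CPM on plastic and 0.330, 0.971 and 0.421 CPM on gel at 250 nM. Its gel libraries lay below plastic at 250 nM (log2 change -1.58, SE 0.81, adjusted p = 0.545) and overlapped at 100 nM. POLA1, which carries the polymerase alpha activity, ranged from 1.69 to 14.6 CPM, with every 250 nM library below every 100 nM library on each substrate. POLA2 ranged from 0.991 to 5.81 CPM and overlapped in each comparison. POLD1 had 1.47, 0.774 and 1.90 CPM on plastic and 0.363, 0.550 and 0.570 CPM on gel at 100 nM, and 2.07, 1.88 and 0 CPM on plastic and 0, 0 and 0.843 CPM on gel at 250 nM, too few counts for a test.

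The clamp PCNA encircles DNA and holds polymerases on it. It read 80.6, 96 and 75.5 CPM on plastic and 57.3, 65.4 and 44.2 CPM on gel at 100 nM, so that every gel library lay below every plastic library (log2 change -0.59, SE 0.19, adjusted p = 0.310). At 250 nM it read 58.4, 43.7 and 48.3 CPM on plastic and 44, 49 and 48.9 CPM on gel, with overlap and a change of -0.09. On plastic the fall from 100 to 250 nM passed the test (log2 change -0.75, SE 0.20, adjusted p = 0.035), and it was lost in 5 of the 12 fits without 1 library, those without plastic 100 nM replicate 1 or 2, plastic 250 nM replicate 2 or 3, or gel 250 nM replicate 3. FEN1, the flap nuclease that trims Okazaki fragments, had 12.5, 20.1 and 21.1 CPM on plastic and 13.8, 14.7 and 8.56 CPM on gel at 100 nM, and 14.9, 9.39 and 9.82 CPM on plastic and 12.6, 12.6 and 11 CPM on gel at 250 nM, with overlap between substrates at both doses. RFC5, a small subunit of the clamp loader, went the other way with dose on plastic. It had 5.60, 6.66 and 6.97 CPM on plastic and 14, 8.11 and 4.85 CPM on gel at 100 nM, and 18.2, 17.4 and 14.9 CPM on plastic and 12.9, 3.40 and 9.27 CPM on gel at 250 nM. On plastic every 250 nM library was above every 100 nM library (log2 change 1.39, SE 0.43, adjusted p = 0.060), as for 16.4% of all genes, and at 250 nM every gel library was below every plastic library (log2 change -0.95, SE 0.44, adjusted p = 0.501). RFC4, of the same complex, had gel libraries above plastic at 250 nM (log2 change 1.55, SE 0.66, adjusted p = 0.440) and 250 nM libraries below 100 nM on plastic (log2 change -2.10, SE 0.62, adjusted p = 0.052). RFC5 overlaps WSB2 and RFC4 overlaps EIF4A2 on the opposite strand in the annotation, and where the counting ignored strand their reads cannot be told apart. RFC3 ranged from 0.971 to 20.8 CPM with 250 nM below 100 nM on each substrate, RFC2 from 3.53 to 9.23 CPM and LIG1 from 1.65 to 7.98 CPM, the last pair with overlap in each comparison. Of the 7 genes of this role, 6 had a negative change on gel at 100 nM and 3 at 250 nM.

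Ribonucleotide reductase makes deoxynucleotides, and its small subunit RRM2 is the one that rises in S phase. RRM2 had 45.4, 52.8 and 59.7 CPM on plastic and 41.7, 25.3 and 11.8 CPM on gel at 100 nM. The values were 51.7, 23 and 14.9 CPM on plastic and 10.9, 4.37 and 9.69 CPM on gel at 250 nM. The gel libraries lay below plastic at each dose (at 100 nM log2 change -1.01, SE 0.45, adjusted p = 0.493, and at 250 nM log2 change -1.81, SE 0.52, adjusted p = 0.278), while on plastic replicate 1 at 250 nM was as high as the 100 nM libraries. The large subunit RRM1 read 94.5, 149 and 133 CPM on plastic and 102, 96.5 and 79.4 CPM on gel at 100 nM, and 148, 113 and 108 CPM on plastic and 73.4, 85 and 77.5 CPM on gel at 250 nM. It overlapped at 100 nM and did not at 250 nM (log2 change -0.65, SE 0.21, adjusted p = 0.320). RRM2B, the paralog of RRM2 that p53 induces, went from 103 ± 8.99 to 54 ± 21.9 CPM on gel (mean and SD, n = 3). This fall passed the test (log2 change -0.93, SE 0.27, adjusted p = 0.035). Its gel libraries at 250 nM read 28.8, 68 and 65.3 CPM. The lowest is replicate 1, the library of low ribosomal DNA share. On plastic RRM2B was at 71 ± 7.12 and 56.9 ± 8.48 CPM. TYMS, thymidylate synthase, read 26.2, 26 and 19.6 CPM on plastic and 16, 15.5 and 13.1 CPM on gel at 100 nM, without overlap (log2 change -0.69, SE 0.27, adjusted p = 0.436), and 27.7, 13.1 and 13.7 CPM on plastic and 18.5, 15.5 and 16.4 CPM on gel at 250 nM, with overlap. TK1, the salvage kinase for thymidine, read 6.41, 6.66 and 10.4 CPM on plastic and 5.26, 2.89 and 1.85 CPM on gel at 100 nM, and 6.21, 1.88 and 1.96 CPM on plastic and 7.27, 0.971 and 0.843 CPM on gel at 250 nM. It did not overlap at 100 nM (log2 change -1.24, SE 0.66, adjusted p = 0.556), and at 250 nM the highest library was gel replicate 1. TYMS shares its locus with ENOSF1 on the opposite strand, and RRM2 has 3 named pseudogenes and TYMS 2. All 4 genes had a negative change on gel at each dose, the smallest at 250 nM being -0.067.

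The G1/S regulators switch the program on. E2F1 had 3.87, 0.929 and 1.58 CPM on plastic and 2.36, 1.24 and 0.998 CPM on gel at 100 nM, and 3.72, 0.469 and 1.18 CPM on plastic and 0.330, 0.486 and 0.843 CPM on gel at 250 nM, most of which rest on 10 counts or fewer. CCNE1, cyclin E1, which activates CDK2 for entry into S phase, had 5.20, 4.96 and 1.90 CPM on plastic and 1.63, 4.54 and 4.28 CPM on gel at 100 nM, and 4.14, 13.1 and 6.68 CPM on plastic and 1.98, 5.83 and 4.21 CPM on gel at 250 nM. Unlike most members it was highest in a 250 nM plastic library, replicate 2, and it overlapped in each comparison. CCNE2, cyclin E2, had 2.94, 5.27 and 4.59 CPM on plastic and 3.08, 1.92 and 0.285 CPM on gel at 100 nM, and 1.24, 0.469 and 0.393 CPM on plastic and 0, 0.971 and 0.843 CPM on gel at 250 nM. Its 250 nM libraries lay below 100 nM on plastic (log2 change -2.55, SE 0.92, adjusted p = 0.096). DNMT1 and UHRF1 copy the methylation pattern onto the new strand. DNMT1 had 62.7, 66.1 and 73.6 CPM on plastic and 58.4, 51.5 and 41.6 CPM on gel at 100 nM, without overlap (log2 change -0.42, SE 0.29, adjusted p = 0.679). The other libraries had 52.6, 43.2 and 38.1 CPM on plastic and 17.5, 29.6 and 50.1 CPM on gel at 250 nM, where gel replicate 3 was above plastic replicate 2 and the spread on gel was wide. UHRF1, which guides DNMT1 to hemimethylated DNA, had 39, 25.2 and 38.9 CPM on plastic and 26.7, 18.3 and 14.1 CPM on gel at 100 nM, and 19.9, 10.8 and 8.25 CPM on plastic and 27.4, 4.37 and 5.48 CPM on gel at 250 nM. Its gel 250 nM replicate 1 was at 27.4 CPM, above all 3 plastic libraries, and the other gel libraries were below them. Of these 4 tested genes, 4 had a negative change on gel at each dose and 0 were called. The change of UHRF1 at 250 nM was only -0.0096.

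The repair and checkpoint genes act on stalled or broken forks. As a role they had the lowest median at 250 nM on gel against 100 nM (-2.93), with 7 of 7 negative and 3 called. Over all genes 51.0% were negative and 6.9% were called lower. RAD51AP1, BRCA2, EXO1, FANCI and FANCD2 did not reach the filter's minimum in all 3 gel libraries at 250 nM. The median of the role is therefore a description that rests on low counts. On gel against plastic, 6 of 7 were negative at 100 nM and 7 of 7 at 250 nM, with medians of -0.43 and -1.28. RAD51AP1, a factor of homologous recombination (chr12:4538798-4560048, plus strand), had 8.67, 11.9 and 14.6 CPM on plastic and 7.98, 5.36 and 5.28 CPM on gel at 100 nM. At 250 nM it had 10.8, 3.29 and 2.36 CPM on plastic and 0.661, 0.971 and 0.421 CPM on gel. The 3 gel libraries at 250 nM were each under 1 CPM and below every other library, and neither dose had an overlap between substrates. The change on gel against plastic was -0.92 (SE 0.45) at 100 nM and -2.98 (SE 0.69) at 250 nM, with adjusted p of 0.523 and 0.217. On gel it fell from 100 to 250 nM (log2 change -3.15, SE 0.66, adjusted p = 0.011), a call that held in 12 of the 12 fits without 1 library. FANCD2, the clamp that Fanconi signaling loads at crosslinks, had 7.87, 10.4 and 16 CPM on plastic and 12, 4.26 and 4.28 CPM on gel at 100 nM. Its values were 11.2, 3.29 and 3.53 CPM on plastic and 0, 1.94 and 0.421 CPM on gel at 250 nM, again with the gel libraries below plastic (log2 change -3.07, SE 0.91, adjusted p = 0.293). Its fall with dose on gel passed the test (log2 change -3.24, SE 0.87, adjusted p = 0.027) and was lost without gel 100 nM replicate 1 or gel 250 nM replicate 1 or 3. FANCD2 has a named pseudogene, as has RAD51AP1. BRCA2, a tumor suppressor that acts in homologous recombination (chr13:32315474-32400266, plus strand), had 18.5, 24.9 and 33.4 CPM on plastic and 32.5, 16.8 and 8.13 CPM on gel at 100 nM. At 250 nM it had 10.8, 4.22 and 3.14 CPM on plastic and 0.991, 3.40 and 3.37 CPM on gel. The substrates overlapped at each dose, and the 250 nM libraries lay below the 100 nM libraries on plastic (log2 change -2.08, SE 0.55, adjusted p = 0.034). BRCA2 fell with dose on gel as well (log2 change -2.93, SE 0.62, adjusted p = 0.011), and leaving out 1 library kept the call in 12 of 12 fits on gel and in 8 of 12 on plastic, where it was lost without plastic 100 nM replicate 2 or 3 or plastic 250 nM replicate 2 or 3. CHEK1, the kinase that slows forks when replication stalls, read 13.6, 21.2 and 18 CPM on plastic and 14.5, 15.8 and 10.1 CPM on gel at 100 nM, and 14.1, 7.98 and 11 CPM on plastic and 3.64, 9.71 and 5.48 CPM on gel at 250 nM. On gel its 250 nM libraries lay below its 100 nM libraries (log2 change -1.14, SE 0.37, adjusted p = 0.056), and the substrates overlapped. BRCA1, EXO1 and FANCI ranged from 0 to 21.2 CPM, with 0 called in any of the 6 comparisons.

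**Figure D5:**
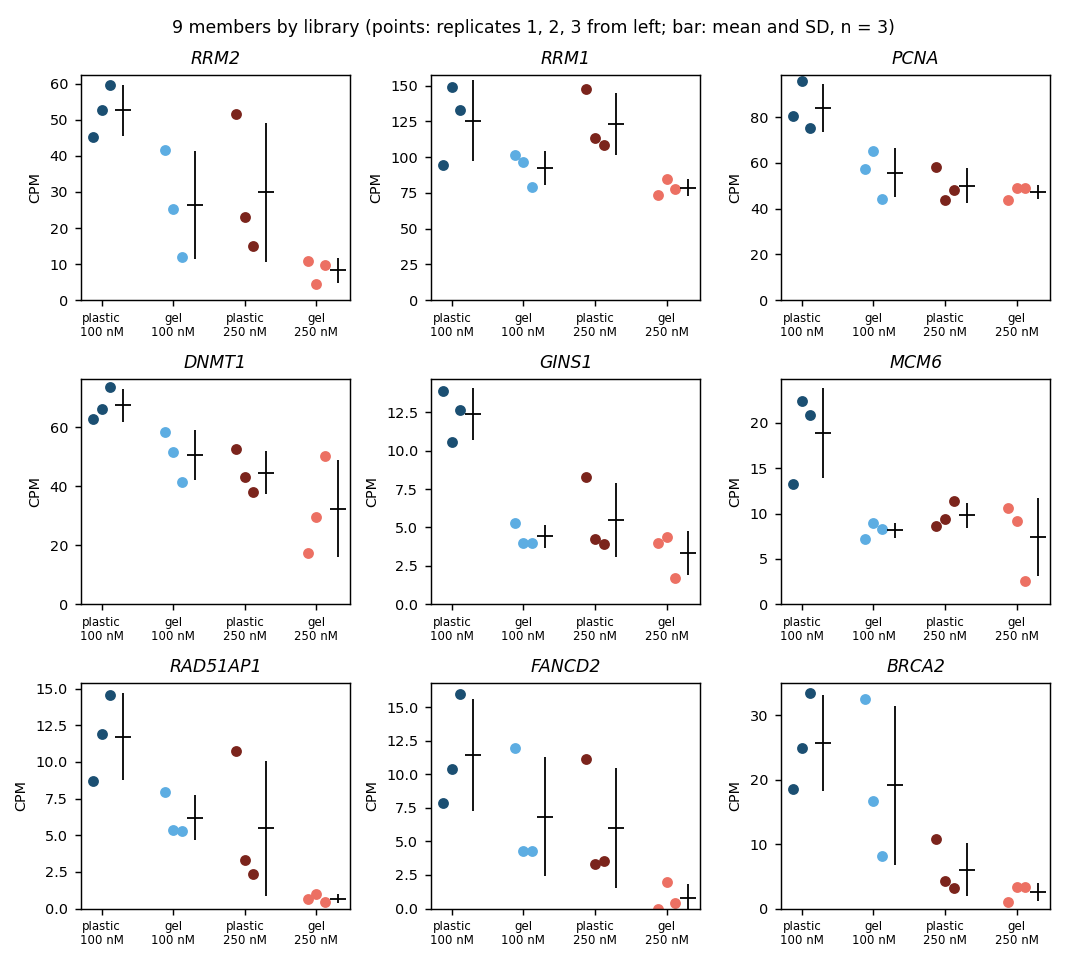
CPM of 9 members in the 12 libraries, with points for replicates 1, 2 and 3 from left to right in each group and a bar for the mean and SD of 3 libraries, each panel with its own linear scale from 0. RAD51AP1 lies under 1 CPM in the 3 gel 250 nM libraries, and replicate 1 is the highest point of plastic 250 nM in every panel but that of MCM6.

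Gel 250 nM replicate 1 was also set against the other 2 gel libraries at 250 nM, member by member. Of the 39 tested members, 15 were above both other gel 250 nM libraries there and 15 below both, and their median GC content was 45.8% and 45.5%. Of the 12329 genes tested, 4923 were above both, with a median GC content of 52.3%, and 5577 below both, with 44.6%. The members were thus not above or below both more often than all genes. Members high there included MCM5, MCM7, TK1 and UHRF1, and GINS2 and FANCD2 were at 0. A fit without this library and plastic 100 nM replicate 1 was also made. The median change of the members on gel was then -0.70 at 100 nM, -0.68 at 250 nM and -0.58 over both doses. In that order 0, 0 and 1 members were called, where 0.453%, 0.0557% and 1.6% of all genes were. The 1 member was RRM1 (adjusted p = 0.035). On plastic 11 members and on gel 4 were then called between doses, where 16.7% and 14.4% of all genes were. The part of this library's composition in the members' values was not tested.

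Members with and without an E2F word were also set side by side. On gel at 100 nM, the 20 tested members with a word had a median of -0.65 and the 15 without had -0.44, and at 250 nM the medians were -0.43 and -0.97. Between doses the medians were -0.93 with and -0.81 without on plastic, and -0.83 and -1.14 on gel. These medians are descriptions, with no test of the difference between the sets. Of the 42 members, 26 overlap another annotated gene and 20 of those overlap one on the opposite strand, such as MCM7 with AP4M1 and MCM2 with TPRA1, and 8 have named pseudogenes, so that their counts carry an uncertainty that depends on how reads were assigned.

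Other genes of the same pathways were counted from separate lists. Of 42 other replication genes tested, 34 had a negative change on gel at 100 nM and 28 at 250 nM, with medians of -0.34 and -0.27, and of 23 other homologous recombination and Fanconi genes 19 and 16 did, with medians of -0.34 and -0.48. Neither list had a gene called on gel against plastic by edgeR, at either dose or over both. Over both doses 10 and 8 genes were lower at an unadjusted p under 0.05, where 6.76% of all genes were. Between doses, 3 other replication genes fell and 1 rose on plastic, and 6 fell and 2 rose on gel. Of the recombination and Fanconi list, 4 fell on plastic and 6 on gel, and 0 rose. Over all genes tested, 4.48% were called lower and 4.04% higher on plastic, and 6.9% lower and 6.91% higher on gel. Among 17 cell cycle brakes and G1 regulators tested, 9 and 7 had a negative change on gel at the lower and the higher dose and 0 were called. CDKN1A, the p53-induced inhibitor of cyclin-dependent kinases, was at 504 ± 88.4 CPM on plastic and 644 ± 155 CPM on gel at 100 nM (mean and SD, n = 3). With 250 nM its means were 655 ± 129.6 and 1216 ± 84.7 CPM. It rose with dose on gel (log2 change 0.92, SE 0.22, adjusted p = 0.018), and its change on gel against plastic over both doses did not pass the test (log2 change 0.62, SE 0.16, adjusted p = 0.085). The 10 mitosis markers had negative changes for 10 and 9 genes on gel at the lower and the higher dose, with medians of -0.95 and -0.98 and 0 called.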

How the data were processed

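Bulk RNA-seq gene tables of 12 IMR90 libraries in 4 groups were used. Trimmomatic, STAR, RSEM, DESeq2 1.36.0 and the build GRCh38 are named in the submitters' processing notes. The sources used here give no annotation release, strand setting or handling of molecular identifiers. Dose units differ within the labels, nM in the titles and µM in the treatment protocol, and the soft substrate is called a hydrogel or a coated plate. The titles are followed here.

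The deposited expected count values are RSEM estimates of reads per gene, per the file headers. The TPM values beside them were deposited already scaled for length and library total, per the file headers. Symbols matched for 61369 of 61541 identifiers, and coordinates came from GENCODE 29.

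Expected counts were rounded and fitted in edgeR 4.0.16 (R 4.3.3) over all 12 libraries, with filterByExpr, which kept 12329 genes, TMM scaling, and 1 mean per group with 8 residual degrees of freedom. P-values were adjusted by Benjamini and Hochberg's method within each of 6 comparisons over all genes tested, and called under 0.05. The script was tested on simulated data. Alternatives were RLE and upper-quartile scaling, no filter, DESeq2 1.42.0, limma 3.58.1 (voom with sample weights, and trend on log2(TPM + 1) and log2(TPM + 0.1)), the groups compared alone, libraries thinned to the smallest total, ribosomal and mitochondrial genes left out, a replicate block, and each library left out. Robust dispersion estimates and leaving out the 2 libraries of low ribosomal DNA share were added after the data were seen.

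The members, lists and motifs were chosen with earlier results of these data known. Values per library are given for the up to 3 members of a role with the highest mean TPM, members called in any comparison, and the 5 largest changes without overlap between substrates. Other members are given by ranges, counts or single results chosen after their values were seen. Of the other lists, RRM2B and CDKN1A, called genes and some of the most abundant are named.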

Additional observations from a re-analysis of the deposited data

How the results depend on the processing

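The median change of the tested members on gel stayed negative and moved by less than the spread between replicates in every setting tried, and without 1 library it ran from -0.88 to -0.34 at 100 nM, from -0.86 to -0.43 at 250 nM and from -0.69 to -0.46 over both doses. The counts of called members moved more, and no called value changed sign. The share of all genes called in either direction by the same fit follows each count in parentheses. On gel against plastic at 100 nM, 1 member was called without the filter (1.16%), 1 by DESeq2 (1.36%) and 8 by limma-voom with sample weights (3.63%), and at 250 nM 3 without the filter (0.802%) and 1 by DESeq2 (0.836%). Over both doses, where 0.754% of all genes were called with the settings of the report, 4 were called without the filter (1.99%), 6 by DESeq2 (3.13%), 9 by limma-voom (6.5%), 0 with RLE scaling (0.746%), 0 with log2(TPM + 1) (0.43%), 0 with log2(TPM + 0.1) (0.357%), 0 in thinned libraries (0.867%) and 0 with the replicate block (0.852%), and from 0 to 1 without 1 library. Between doses on plastic (8.52%), 8 were called without the filter (5.04%), 9 by DESeq2 (13.5%), 23 by limma-voom (25.7%), 1 with log2(TPM + 0.1) (4.82%), 9 from the 2 groups alone (14.3%), 0 in thinned libraries (8.5%), 11 without the 2 libraries of low ribosomal DNA share (16.7%), and from 0 to 11 without 1 library. RFC5 was called higher on plastic without the filter, by DESeq2, by limma-voom and from the 2 groups alone. Between doses on gel (13.8%), 11 were called without the filter (7.83%), 11 by DESeq2 (19.5%), 2 from the 2 groups alone (4.63%), and from 2 to 7 without 1 library. The cause of these moves was not tested. With the replicate block, 6 members were called between doses on plastic (8.71%), 5 on gel (13.5%), and 0 on gel against plastic at either dose. Deviations of same-numbered libraries correlated from -0.24 to 0.32 with a median of 0.07, over 0.1 in 8 of 18 pairs, so the numbers were not taken to pair the samples.

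Counts of rare members were low at 250 nM, where 14 to 19 of the 42 had 5 counts or fewer in 5 of the libraries and 6 of the 42 had so few in plastic replicate 1, which was not the deepest library. At 100 nM this held for 1 to 4 of the 42. Dose, depth and library set cannot be told apart in these counts.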

Other observations

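Genes that work beside the 42 members were also called between doses, with the log2 change and the adjusted p of edgeR given in that order in parentheses. Of the other replication genes, those that fell on plastic were ORC6 (-1.43, 0.032), SLBP (-1.24, 0.008) and WDHD1 (-1.26, 0.045), and POLE3 rose (1.00, 0.018). ORC6 is a subunit of the origin recognition complex, SLBP binds the histone mRNAs of S phase, and WDHD1 tethers polymerase alpha to the helicase. On gel those that fell were POLD3 (-1.67, 0.045), GMNN (-1.23, 0.039), MCM8 (-1.68, 0.044), ORC3 (-1.48, 0.006), ATAD5 (-3.41, 0.012) and WDHD1 (-1.42, 0.023), and POLE3 (1.20, 0.007) and POLE4 (0.80, 0.017) rose. POLE3 and POLE4, the small histone-fold subunits of polymerase epsilon, were higher at 250 nM where the member POLE2 was not called. Of the recombination and Fanconi genes, UBE2T (-2.27, 0.011), PALB2 (-1.92, 0.044), USP1 (-1.17, 0.025) and RMI1 (-1.80, 0.010) fell on plastic, and BRIP1 (-1.48, 0.036), BARD1 (-1.72, 0.035), USP1 (-1.25, 0.016), ATR (-0.93, 0.022), RMI1 (-1.95, 0.007) and XRCC2 (-3.70, 0.038) fell on gel. USP1 removes the ubiquitin that marks FANCD2, and BARD1 is the partner of BRCA1. The large falls of ATAD5 and XRCC2 rest on few counts. In gel 250 nM replicates 1, 2 and 3 ATAD5 had 3, 1 and 5 counts and XRCC2 had 0, 0 and 2.

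Among the brakes and G1 regulators, RBL1 and RB1, both of the retinoblastoma family, fell on plastic (-1.94, 0.043) and (-1.77, 0.005) and on gel (-2.47, 0.018) and (-1.40, 0.009), and E2F7, a repressor of E2F targets, fell on gel (-1.16, 0.031). CCND2 rose on plastic (0.93, 0.032) and CCND3 on gel (1.03, 0.017). XPC, a sensor of nucleotide excision repair, rose on plastic (0.81, 0.034). Of the mitosis markers, CCNB1 (-2.12, 0.028), CCNB2 (-1.95, 0.043) and AURKB (-2.32, 0.016) fell on plastic and TOP2A (-1.81, 0.033), MKI67 (-3.38, 0.010), PLK1 (-2.51, 0.015), BUB1 (-3.52, 0.036) and CDK1 (-2.26, 0.034) on gel. In gel 250 nM BUB1 had 0, 1 and 6 counts, PLK1 6, 2 and 2, and RBL1 5, 3 and 2, so these falls rest on few counts. Of 10 mitosis markers 3 fell on plastic and 5 on gel. Of 17 brakes and G1 regulators tested, 2 fell and 1 rose on plastic, and 3 fell and 2 rose on gel, CDKN1A included. Of 5 p53-induced genes 1 rose on plastic and 1, RRM2B, fell on gel. Over all genes 4.48% fell and 4.04% rose on plastic, and 6.9% and 6.91% on gel. Dose and library set cannot be told apart in these calls. The most abundant genes of the lists included DUT, which keeps uracil out of DNA, at 73.7 ± 25.6, 60.3 ± 10.0, 50.1 ± 7.57 and 37.3 ± 0.990 CPM (mean and SD, n = 3) on plastic and gel at 100 nM and on plastic and gel at 250 nM. RFC1, the large subunit of the clamp loader, was at 70.8 ± 10.8, 57.5 ± 5.03, 66.6 ± 8.79 and 50.3 ± 10.2 CPM in the same order. CDKN2A was at 41.8 ± 28.5, 35.6 ± 25.6, 26.2 ± 17.8 and 33.5 ± 14.7 CPM, with an SD in each group that is large beside the differences between groups.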
